A study of Homo sapiens with 16 samples.

Results

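The 42 genes described here are the transcription factor ATF4, its partner factors, and the enzymes, amino acid transporters and tRNA synthetases that belong to the ATF4 amino acid response. They were picked by symbol, and all 42 were among the 26475 gene symbols of the deposited table and among the 16012 genes that passed the low-count filter. Poly-A RNA had been sequenced from lung metastases that human A375 MA2-Luc cells formed in NSG mice. A375 is an established melanoma line, and NSG mice are immunodeficient, so the tumours grew in a host that lacks most adaptive immunity. Every mouse received 250000 cells by the retro-orbital route. The design crossed a High Fat with a ketogenic diet, and no treatment with BRAF-Kinase and MEK 1/2 inhibitors given by oral gavage 3 times a week for 5 weeks. Each of the 4 groups held 4 libraries. The labels give neither the compounds nor their doses. The sources used here are silent on the age of the mice, on a vehicle for the controls and on whether each replicate was its own mouse. The p-values therefore measure the spread between these libraries. Because the design text mentions culture as well, a culture step before extraction cannot be told apart from extraction straight from the lung.

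ATF4 is the effector of the integrated stress response. Kinases that sense amino acid shortage, misfolded protein, heme shortage or double-stranded RNA phosphorylate the initiation factor eIF2, which slows translation in general and favours translation of the ATF4 message. ATF4 protein then pairs with C/EBP-family factors on composite elements and raises transcription of genes for amino acid synthesis, amino acid uptake and tRNA charging. Prolonged activation adds DDIT3 (CHOP), TRIB3 and CHAC1, which are tied to cell death and glutathione breakdown. Much of the control of ATF4 itself is translational, so its mRNA level is an incomplete readout of its activity.

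The core of the C/EBP-ATF element, TGATGNAA, was searched on both strands of RefSeq promoters (GRCh38.p14), which run from 250 bases before to 50 bases after the start. The table held 34 of the 42 genes, and had no entry for NUPR1, PSPH, SHMT2, ALDH1L2, PYCR1, GPT2, SLC7A11 or YARS. A match stood in 13 of the 34 genes (38.2%), against 4.46% of the 27305 genes in that table. Counted by promoter, 13 of 55 (23.6%) held one, against 3.62% of all 35116 promoters. The 10 matches below are shown because they are the known class of site for the factor that names the response. Each is written 5′ to 3′ on the strand of the gene with 20 bases on either side, and capitals mark the 8 bases of the match (TTNCATCA is the motif on the opposite strand). A match is a description of the letters and not a measured binding site.
CEBPG (chr19:33374051-33374098, plus strand): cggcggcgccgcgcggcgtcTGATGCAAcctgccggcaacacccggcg
CHAC1 (chr15:40953242-40953289, plus strand): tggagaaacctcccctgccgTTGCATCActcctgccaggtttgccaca
ASNS (chr7:97872449-97872496, minus strand): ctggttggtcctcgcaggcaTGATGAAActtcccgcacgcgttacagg
SLC1A4 (chr2:64989372-64989419, plus strand): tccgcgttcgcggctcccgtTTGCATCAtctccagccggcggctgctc
SLC1A5 (chr19:46784884-46784931, minus strand): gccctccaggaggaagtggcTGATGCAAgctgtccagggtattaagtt
SLC38A1 (chr12:46266493-46266540, minus strand): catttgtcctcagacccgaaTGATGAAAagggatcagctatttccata
AARS (chr16:70289666-70289713, minus strand): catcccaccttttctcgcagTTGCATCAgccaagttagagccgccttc
CARS (chr11:3057398-3057445, minus strand): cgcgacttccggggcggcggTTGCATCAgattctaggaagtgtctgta
GARS (chr7:30594825-30594872, plus strand): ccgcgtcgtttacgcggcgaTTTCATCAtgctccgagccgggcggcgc
MARS (chr12:57488044-57488091, plus strand): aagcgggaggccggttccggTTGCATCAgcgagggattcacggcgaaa

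The match began between position -209 in CHAC1 and position -2 in CARS, counted from the start. The matches of SLC7A1, SLC3A2 and NARS lay past the start and are not printed. In CHAC1, SLC1A4, AARS, CARS, GARS and MARS the motif stands on the strand opposite to the gene.

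Levels below are CPM (counts scaled to a common library total) on library sizes scaled with edgeR's TMM factors. The deposited totals ran from 37099876 to 77251525 counts per library. Ribosomal RNA genes took between 4.10% and 50.01% of them, and the shares of the inhibitor libraries lay below those of the untreated ones on both diets (15.01% to 19.97% against 21.7% to 50.01% on high fat, 4.10% to 8.37% against 15.2% to 33.7% on ketogenic). The melanocyte-lineage factors SOX10 and MITF and the marker S100B were present, and the summed level of the 7 melanoma markers was 883 to 1112 CPM. The pigment genes PMEL, DCT, TYR and MLANA were near 0 (largest library value 5.39 CPM). Markers of leukocytes, endothelium, lung epithelium and blood each summed to at most 3.02 CPM in any library. Their largest sums, 1.40, 1.76, 1.33 and 3.02 CPM in that order, were in the first high fat library with inhibitors. The symbols are those of human genes and the host is mouse, so these sums cannot show how much host tissue the libraries held. In bulk libraries such as these, fewer cells of a type and less RNA per cell cannot be told apart.

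The most marked pattern among the 42 genes was between single libraries and not between groups. Replicate 4 of the untreated high fat group had the highest level of its group in 40 of the 42 genes, where that library was highest in 34.3% of all genes tested. Replicate 4 of the ketogenic group with inhibitors was highest of its group in 39 of 42, against 34.2% of all genes. The first exceeded the next library of its group by over 1.5-fold in 29 members (5.50% of all genes), and the second did so in 28 (7.04% of all genes). At over 2-fold the counts were 13 members (2.28% of all genes) and 19 members (2.47% of all genes). Ranked over all 16 libraries, they were first or second in 36 and in 35 members, and in 19.1% and 25.9% of all genes. Each of the other 14 libraries took such a rank in at most 3. Set against the median of the other 3 libraries of its group, the median ratio over the 42 genes was 1.87 in the high fat library, from 0.879 (ALDH18A1) to 6.65 (ASNS). In the ketogenic library it was 2.24, from 0.804 (ALDH18A1) to 11.8 (DDIT3). The exceptions to the high rank were CEBPB and ALDH18A1 in the high fat library, and VLDLR, ALDH18A1 and EPRS in the ketogenic one.

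**Figure D1:**
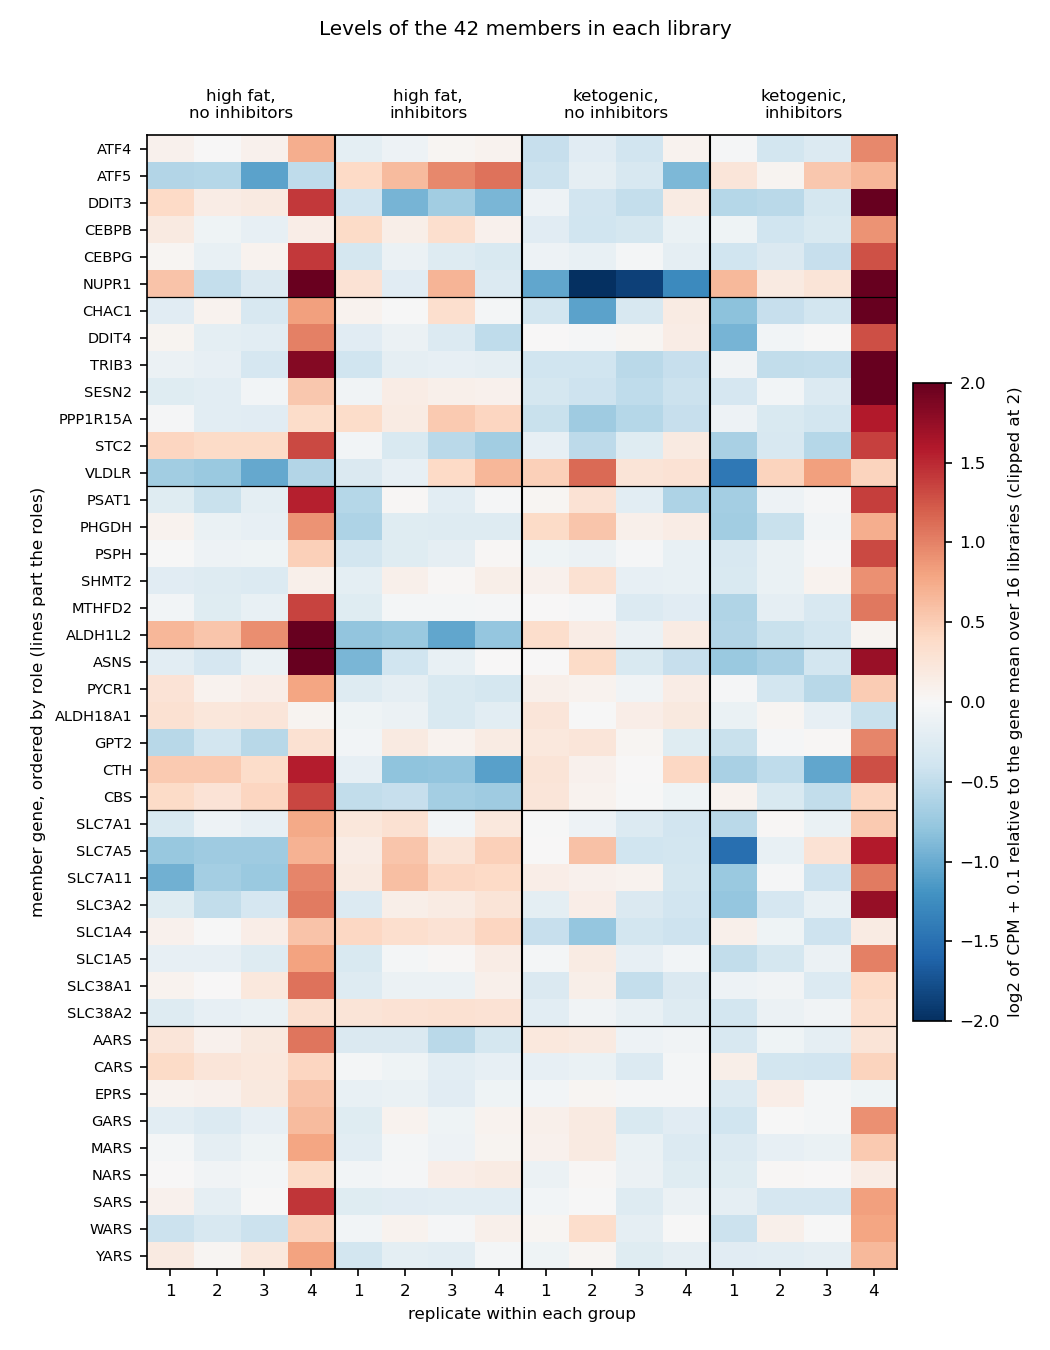
Heat map of the level of each of the 42 genes (rows, ordered by role) in each of the 16 libraries (columns, by group and replicate), as log2 of CPM + 0.1 relative to the gene's mean over all libraries, with the colour scale clipped at 2. The fourth untreated high fat library and the fourth ketogenic library with inhibitors are red down most of their length, while ALDH18A1 is not.

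The values of single genes show the size of the gap. The genes of this paragraph were chosen after their values were seen. ASNS, which makes asparagine from aspartate and glutamine, was at 51.7, 47.2, 54.6 and 344 CPM in the untreated high fat libraries and at 35.5, 38.1, 46.3 and 197 CPM in the ketogenic libraries with inhibitors. Its other groups, at 31.5, 45.2, 53.6 and 59.9 CPM (high fat with inhibitors) and 60.1, 78.1, 48.4 and 43.5 CPM (ketogenic, untreated), held no such value. TRIB3, a pseudokinase that feeds back on ATF4, was at 31.9, 30.9, 27.4 and 123 CPM in the untreated high fat libraries. In the ketogenic libraries with inhibitors TRIB3 was at 33.0, 24.5, 24.7 and 198 CPM, and the 8 libraries of the other groups lay between 23.6 and 31.0 CPM. CHAC1, which breaks down glutathione, reached 128 CPM in the ketogenic library and 38.8 CPM in the high fat one, with every other library at 10.3 to 27.8 CPM. SARS, the seryl-tRNA synthetase, was at 151, 125, 141 and 382 CPM and 125, 113, 113 and 251 CPM in the same 2 groups. Of these genes, ASNS and SARS were higher in the high fat library, and TRIB3, CHAC1 and DDIT3 in the ketogenic one.

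**Figure D2:**
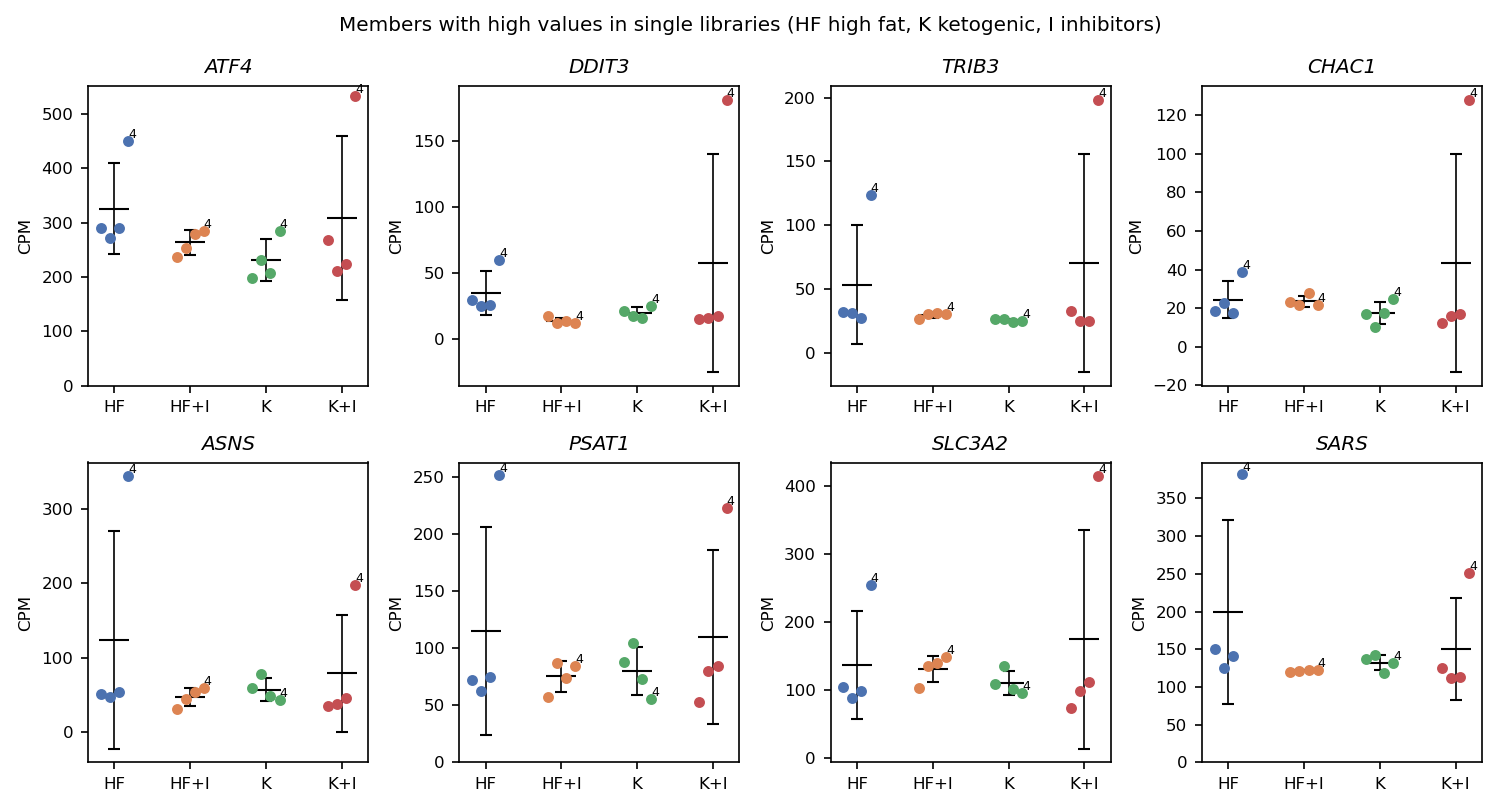
CPM of ATF4, DDIT3, TRIB3, CHAC1, ASNS, PSAT1, SLC3A2 and SARS in each library (points, replicate 4 marked), with the group mean and SD as horizontal lines and bars; HF is high fat, K ketogenic and I inhibitors. In the HF and K+I groups 1 point lies far above the other 3, for example ASNS at 344 against 47.2 to 54.6 CPM, and the SD there is nearly as large as the mean or larger for DDIT3, TRIB3, CHAC1 and ASNS in K+I.

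Other features of these libraries were measured beside this. The proliferation genes CDK1, PLK1 and TOP2A were low in the high fat library, at 15.1, 7.07 and 34.3 CPM against ranges of 48.7 to 56.8, 57.4 to 65.4 and 261 to 297 CPM in the other 3. In the ketogenic library CDK1 (78.6 CPM), PLK1 (79.2 CPM) and TOP2A (184 CPM) lay within the range of the other 3. HSPA5, the endoplasmic reticulum chaperone of the unfolded protein response, was 975 CPM in the high fat library against 586 to 646 CPM in the others, but 774 CPM in the ketogenic library, the lowest of its group. Ribosomal RNA took 22.3% and 8.37% of their counts and their totals were 58113948 and 52318416 counts, all inside the range of the other libraries except that 8.37% was the highest of its group (next 7.98%). The part of these features in the levels of the members was not tested. Because 4 libraries form a group, 1 such library moves the mean and widens the spread, so results from all 16 libraries, which are meant where no number of libraries is named, are set below beside values from the 14 left without these 2, a choice made after seeing the data. Since the 2 were set aside for their values of these same genes, the 14-library values are a description beside the 16-library result. The spread of each gene was estimated over all groups. Leaving out a library therefore also changes the SE of comparisons that it is not part of, and a pass with 14 libraries is no test of its own.

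On the high fat diet, inhibitors changed 12 of the 42 genes, 2 upward and 10 downward (edgeR's quasi-likelihood test, Benjamini-Hochberg adjusted p under 0.05). Of all genes tested, 20.6% were called higher and 21.7% lower, so the share of members lower (23.8%) was near the background and the share higher (4.76%) was below it. ATF5 and VLDLR rose, and ALDH1L2, CTH, CBS, STC2, AARS, PYCR1, YARS, CARS, EPRS and ALDH18A1 fell. The median log2 fold change was -0.34 over the members and -0.03 over all genes. With 14 libraries, 10 members were higher and 12 lower (24.4% and 24% of all genes) and the median was 0.04. The 12 were the same 10 genes with DDIT3 and CEBPG, and the 10 were ATF5, PPP1R15A, GPT2, WARS and the transporters SLC7A1, SLC7A5, SLC7A11, SLC3A2, SLC1A4 and SLC38A2. VLDLR was then no longer called. Without untreated high fat library 4 alone, 3 members were higher and 7 lower (20.9% and 20.9% of all genes).

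On the ketogenic diet, inhibitors raised 2 members, ATF5 and NUPR1, and lowered none. The background was 0.856% of all genes higher and 0.887% lower. At an unadjusted p under 0.05 there were 8 members in either direction, for which the share of all genes was not counted. DESeq2 called 4 higher and none lower (2.77% and 2.79% of all genes), and limma voom with quality weights 2 higher and 3 lower (4.23% and 4.86% of all genes). The median log2 fold change was 0.22 over the members and 0.01 over all genes. With 14 libraries, NUPR1 was higher, PHGDH, ALDH1L2 and CTH were lower (1.24% and 1.41% of all genes), and the median was -0.17. Without ketogenic inhibitor library 4 alone, 0 members were higher and 0 lower (0.609% and 0.628% of all genes).

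The ketogenic against the high fat diet without inhibitors gave 1 member higher, VLDLR, and 4 lower, NUPR1, ALDH1L2, SLC1A4 and CARS. Of all genes, 7.99% were called higher and 5.51% lower. The median was -0.35 over members and -0.02 over all genes, and -0.09 over members with 14 libraries, when 4 were higher and 6 lower (12.5% and 8.93% of all genes). Between the diets with inhibitors no member passed the test (0.05% of all genes higher, 0.119% lower), and 5 had an unadjusted p under 0.05, again with no count over all genes. DESeq2 also called none (1.22% of all genes higher, 0.938% lower). Limma voom with quality weights called 5 lower there (3.66% of all genes), and the 14-library fit also called 5 lower (0.811% of all genes lower, 0.638% higher). Without ketogenic inhibitor library 4 alone, 0 were called in either direction (0.154% of all genes lower, 0.135% higher). The difference of the inhibitor effect between the diets passed in 3 members, NUPR1, ALDH1L2 and CBS, all more positive on the ketogenic diet, while 9.02% of all genes passed in either direction. With 14 libraries 9 passed: DDIT3, NUPR1, ALDH1L2 and CBS more positive on the ketogenic diet, and GPT2, SLC7A11, SLC3A2, SLC38A2 and WARS more negative. That share of members (21.4%) equalled the 21.4% of all genes that passed in the same fit. With only the high fat or only the ketogenic library left out, NUPR1, ALDH1L2 and CBS were the 3 that passed (10.4% and 16.2% of all genes). The comparisons share groups, so their fold changes are not independent of each other.

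**Figure D3:**
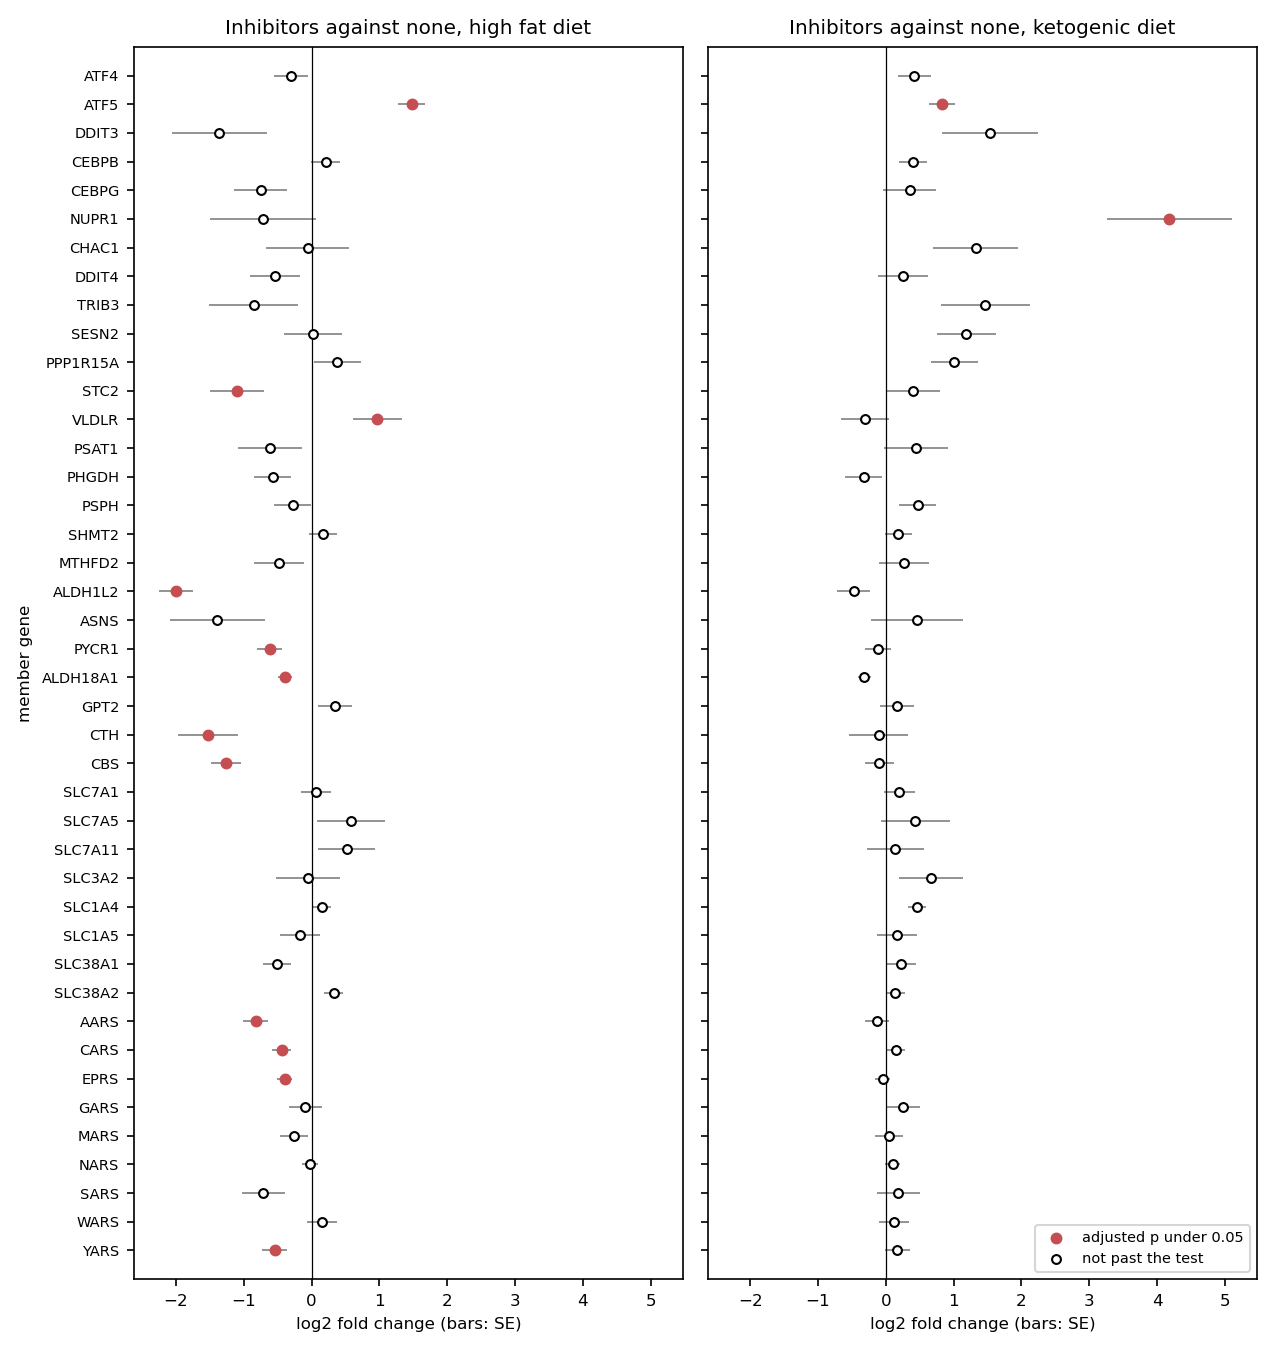
Log2 fold change (points) with its SE (bars) of the 42 members for inhibitors against none on the high fat diet (left) and on the ketogenic diet (right), from the fit of all 16 libraries; filled points passed the test at an adjusted p under 0.05. ALDH1L2 at -1.996 and ATF5 at 1.48 are the outermost filled points on the left, and NUPR1 at 4.19 carries the widest bar on the right.

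Among the 6 regulators, ATF5 was the gene that inhibitors raised on both diets. ATF5 (chr19:49928702-49933935, GENCODE 29 on GRCh38) encodes a basic leucine zipper factor related to ATF4 that is itself induced in the stress response. Its levels were 6.004, 6.11, 4.27 and 6.35 CPM without and 12.03, 14.2, 17.8 and 19.4 CPM with the inhibitors under high fat feeding, and 6.76, 8.07, 7.29 and 4.83 CPM without and 10.8, 9.45, 13.2 and 14.6 CPM with them on the ketogenic diet. The treated and untreated libraries did not overlap on either diet. The log2 fold change was 1.48 (SE 0.20, adjusted p = 6.72e-05) on high fat, or 2.79-fold, and 0.83 (SE 0.19, adjusted p = 0.0389) on ketogenic, or 1.78-fold. Without the 2 libraries it was 1.54 (SE 0.21, adjusted p = 5.47e-05) and 0.72 (SE 0.20, adjusted p = 0.0683), so the ketogenic call was lost while the value stayed close. It was also lost without any untreated ketogenic library and without inhibitor library 3 or 4, with values between 0.70 and 0.93 and an adjusted p up to 0.120 (such ranges, here and below, are over every fit that left out 1 library of the groups compared). ATF5 was the regulator least touched by the 2 libraries, which stood at 6.35 and 14.6 CPM. The annotation places NUP62 and IL4I1 on the strand opposite to ATF5, and without a stated strand setting their reads cannot be told apart.

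NUPR1 (chr16:28532708-28539174), a small stress-induced chromatin protein, was read at very low depth. The counts in the untreated ketogenic libraries were 14, 1, 4 and 7, and the largest count, 375, was in the fourth ketogenic library with inhibitors. In CPM it was 0.869, 0.368, 0.431 and 2.45 without and 0.691, 0.457, 0.942 and 0.439 with inhibitors on high fat. On the ketogenic diet it was 0.217, 0.0153, 0.0779 and 0.17 without and 0.917, 0.637, 0.681 and 6.51 with inhibitors. The ketogenic untreated libraries were the 4 lowest of all 16. The inhibitor effect was 4.19 (SE 0.92, adjusted p = 0.0334) on ketogenic and -0.71 (SE 0.78, adjusted p = 0.487) on high fat, the diet effect without inhibitors -3.11 (SE 0.91, adjusted p = 0.0339), and the difference between the inhibitor effects 4.90 (SE 1.203, adjusted p = 0.0255). With 14 libraries these were 2.63 (SE 0.59, adjusted p = 0.0304), 0.17 (SE 0.55, adjusted p = 0.812), -2.22 (SE 0.59, adjusted p = 0.0173) and 2.46 (SE 0.80, adjusted p = 0.0399). The 3 calls held there at a smaller size. Leaving out 1 library at a time, the inhibitor effect on ketogenic was lost without any untreated library or without inhibitor library 4 (2.63 to 4.72, adjusted p up to 0.0900). The diet effect was lost without untreated high fat library 1 or 4 or untreated ketogenic library 1, 2 or 3 (-3.64 to -2.23, adjusted p up to 0.108), and the difference without high fat inhibitor library 2 or 4 or untreated ketogenic library 2 or 3 (3.34 to 5.43, adjusted p up to 0.0598).

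DDIT3 (chr12:57516588-57521737), the pro-apoptotic factor CHOP, was at 29.6, 24.8, 25.3 and 59.6 CPM without and 17.1, 11.7, 13.8 and 11.8 CPM with inhibitors on high fat. On the ketogenic diet it was at 20.9, 17.0, 16.1 and 25.1 CPM without and 15.01, 15.4, 17.5 and 182 CPM with inhibitors. On high fat all 4 treated libraries lay below all 4 untreated ones, but the fold change did not pass, at -1.36 (SE 0.71, adjusted p = 0.136). With 14 libraries it was -0.97 (SE 0.16, adjusted p = 0.00021) and passed. Without untreated high fat library 4 alone it was -0.97 (SE 0.74, adjusted p = 0.317) and did not pass. The 14-library pass thus rests on also leaving out a ketogenic library, which is not part of this comparison. On ketogenic the value was 1.54 (SE 0.71, adjusted p = 0.261) with 16 libraries and -0.31 (SE 0.16, adjusted p = 0.351) with 14, a change of sign, since 1 library held 182 CPM and the other 3 at most 17.5 CPM. The difference of effects was 2.90 (SE 0.998, adjusted p = 0.081), and 0.66 (SE 0.22, adjusted p = 0.0473) with 14. That difference did not pass without untreated high fat library 4 alone (adjusted p = 0.126) or without ketogenic inhibitor library 4 alone (adjusted p = 0.0609). The gene lies tail to tail with MARS, which it overlaps on the opposite strand.

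ATF4 (chr22:39519695-39522685) was at 289.8, 272, 289.5 and 450.1 CPM without and 237, 254, 279 and 286 CPM with inhibitors on high fat, and at 198, 232, 208 and 285 CPM and 268, 211, 225 and 532 CPM on ketogenic. It passed in none of the 5 comparisons. Its inhibitor effect was -0.30 (SE 0.25, adjusted p = 0.334) on high fat and 0.42 (SE 0.25, adjusted p = 0.379) on ketogenic, and -0.11 (SE 0.12, adjusted p = 0.492) and 0.02 (SE 0.12, adjusted p = 0.956) with 14 libraries. Its dimer partners CEBPB and CEBPG passed in none either. With 14 libraries CEBPG passed on high fat, at -0.24 (SE 0.08, adjusted p = 0.0303), and CEBPB for diet with inhibitors, at -0.49 (SE 0.11, adjusted p = 0.0436). CEBPG was 24.2 to 34.96 CPM in 14 libraries and 89.3 and 81.1 CPM in the fourth untreated high fat library and the fourth ketogenic library with inhibitors. CEBPB was 186 CPM in the latter and 75.9 to 131 CPM elsewhere.

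Of the 7 stress effectors, VLDLR and STC2 passed a test with 16 libraries. VLDLR (chr9:2621834-2660053) encodes the very low density lipoprotein receptor, an ATF4 target that takes up lipoprotein. It was at 10.9, 10.6, 8.64 and 11.7 CPM in the untreated high fat libraries, the group with the lowest mean, and at 14.5, 15.8, 23.4 and 28.02 CPM with inhibitors. On the ketogenic diet it was at 24.6, 39.2, 21.2 and 21.7 CPM without and 6.498, 24.2, 31.5 and 24.2 CPM with inhibitors. Every high fat inhibitor library and every untreated ketogenic library lay above the untreated high fat ones, while the treated ketogenic group held both the lowest and 1 of the highest values. It rose with inhibitors on high fat, with a log2 fold change of 0.97 (SE 0.36, adjusted p = 0.0428), and was higher on ketogenic than on high fat without inhibitors, at 1.35 (SE 0.36, adjusted p = 0.0254). With 14 libraries these were 1.03 (SE 0.43, adjusted p = 0.0621) and 1.41 (SE 0.43, adjusted p = 0.0355). Leaving out any untreated high fat library, or inhibitor library 3 or 4, ended the high fat call (0.78 to 1.10, adjusted p up to 0.125). Leaving out untreated high fat library 1, 2 or 3 or untreated ketogenic library 1 or 2 ended the diet call (1.11 to 1.46, adjusted p up to 0.0955). The inhibitor effect on ketogenic was -0.31 (SE 0.36, adjusted p = 0.685) and the difference between the diets -1.27 (SE 0.51, adjusted p = 0.118).

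STC2 (chr5:173314713-173329503), a secreted glycoprotein induced under stress, was at 4.60, 4.46, 4.45 and 8.64 CPM without and 3.27, 2.72, 2.30 and 2.05 CPM with inhibitors on high fat, with no overlap. On ketogenic it was at 3.03, 2.33, 2.86 and 3.88 CPM without and 2.13, 2.70, 2.26 and 8.89 CPM with inhibitors. It fell on high fat, at -1.10 (SE 0.39, adjusted p = 0.0338), and with 14 libraries was -0.80 (SE 0.20, adjusted p = 0.00481). The call was lost without untreated library 4 or inhibitor library 2, 3 or 4, where the value lay between -1.23 and -0.80 and the adjusted p reached 0.115. PPP1R15A (chr19:48872392-48876057), the GADD34 subunit that directs dephosphorylation of eIF2, was at 77.6, 68.2, 67.5 and 101 CPM without and 102, 88.7, 113 and 106 CPM with inhibitors on high fat. On ketogenic it was at 58.0, 48.3, 52.9 and 57.3 CPM without and 73.8, 63.7, 61.2 and 238 CPM with inhibitors. All 4 treated ketogenic libraries exceeded all 4 untreated ones, but the value of 1.01 (SE 0.35, adjusted p = 0.146) did not pass. With 14 libraries it was 0.53 (SE 0.10, adjusted p = 0.000618) on high fat, which passed, and 0.29 (SE 0.10, adjusted p = 0.131) on ketogenic. The same fit gave -0.39 (SE 0.10, adjusted p = 0.0128) for diet without inhibitors and -0.63 (SE 0.10, adjusted p = 0.00911) with them, both lower on ketogenic. These passes did not hold with 1 library left out. Without untreated high fat library 4 alone the inhibitor value on high fat was 0.53 (SE 0.37, adjusted p = 0.267). The diet value without inhibitors was then -0.39 (SE 0.36, adjusted p = 0.493). Without ketogenic inhibitor library 4 alone the diet value with inhibitors was -0.63 (SE 0.13, adjusted p = 0.0563). None of CHAC1, TRIB3, SESN2 and DDIT4 passed in any comparison; on ketogenic the inhibitor values of CHAC1, TRIB3 and SESN2 were 1.33, 1.47 and 1.19 with 16 libraries and -0.20, 0.12 and 0.21 with 14.

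Of the 6 serine and one-carbon enzymes, only ALDH1L2 passed a test with 16 libraries. ALDH1L2 (chr12:105019784-105084577) oxidises 10-formyltetrahydrofolate in mitochondria and yields NADPH. Its levels were 42.8, 39.6, 51.2 and 107 CPM without and 15.5, 16.05, 13.1 and 15.7 CPM with inhibitors on high fat. On ketogenic they were 34.3, 29.9, 24.9 and 30.2 CPM without and 17.9, 19.7, 20.8 and 27.8 CPM with inhibitors. The lowest untreated high fat library was above every library of the other 3 groups. Inhibitors lowered it 3.99-fold on high fat, a log2 fold change of -1.996 (SE 0.25, adjusted p = 5.94e-05), and the ketogenic diet alone gave -1.01 (SE 0.25, adjusted p = 0.0156). On ketogenic the inhibitor effect was -0.47 (SE 0.25, adjusted p = 0.323), and the difference between the diets 1.52 (SE 0.35, adjusted p = 0.0203). With 14 libraries the 4 values were -1.56 (SE 0.12, adjusted p = 1.81e-06), -0.58 (SE 0.12, adjusted p = 0.00467), -0.62 (SE 0.12, adjusted p = 0.0156) and 0.94 (SE 0.17, adjusted p = 0.00247). Without ketogenic inhibitor library 4 alone the inhibitor effect on ketogenic was -0.62 (SE 0.27, adjusted p = 0.307) and did not pass. The fall on high fat passed under all 18 alternatives, between -2.33 and -1.56. The diet effect was lost without untreated ketogenic library 2 (adjusted p = 0.0520) and was -0.58 without untreated high fat library 4.

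PHGDH (chr1:119648411-119744226), which commits 3-phosphoglycerate to serine synthesis, was at 189.6, 164, 160.4 and 334 CPM without and 118, 151, 151 and 150.1 CPM with inhibitors on high fat. On ketogenic it was at 235, 264, 194 and 200.2 CPM without and 111, 132, 174 and 298 CPM with inhibitors. The inhibitor effect was -0.57 (SE 0.27, adjusted p = 0.102) and -0.32 (SE 0.27, adjusted p = 0.563). With 14 libraries the ketogenic value was -0.68 (SE 0.15, adjusted p = 0.0267) and passed. PSPH (chr7:56011051-56051604), the phosphatase of the last step, was at 19.0, 17.8, 18.1 and 26.6 CPM and 14.8, 16.2, 16.9 and 19.4 CPM on high fat without and with inhibitors, and at 18.03, 17.7, 18.8 and 17.3 CPM and 15.3, 17.5, 18.8 and 48.1 CPM on ketogenic. It passed in no comparison, with -0.27 (SE 0.27, adjusted p = 0.44) and 0.47 (SE 0.27, adjusted p = 0.376) for inhibitors. PSAT1, the transaminase of the serine route, and SHMT2 and MTHFD2, the mitochondrial enzymes that move serine carbon to folate, did not pass in any of the 5 comparisons. PSAT1 was at 53.0 to 104 CPM in 14 libraries, and at 251 and 222 CPM in the high fat and ketogenic libraries that stand apart. SHMT2 was at 145 to 222 CPM in 14 libraries, and at 194 and 339.5 CPM in the high fat and ketogenic libraries that stand apart. MTHFD2 was at 65.3 to 99.1 CPM in 14 libraries, and at 253 and 206 CPM in the high fat and ketogenic libraries that stand apart.

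Of the 6 other amino acid enzymes, CTH, CBS, PYCR1 and ALDH18A1 fell with inhibitors on high fat, where 21.7% of all genes were called lower. CBS (chr21:43053191-43076943) and CTH (chr1:70411218-70439851) are the consecutive enzymes that turn homocysteine into cysteine. CBS was at 54.9, 50.8, 56.4 and 106 CPM without and 29.7, 30.5, 26.3 and 25.6 CPM with inhibitors on high fat, and at 49.9, 44.0, 41.8 and 39.7 CPM and 44.0, 34.1, 29.8 and 56.5 CPM on ketogenic. CTH was at 15.5, 15.4, 13.9 and 32.2 CPM and 9.53, 6.07, 6.15 and 5.01 CPM on high fat, and at 12.8, 11.4, 10.7 and 14.3 CPM and 6.83, 7.54, 5.14 and 26.3 CPM on ketogenic. For both genes the treated and untreated high fat libraries did not overlap, and the ketogenic ones did. CBS fell on high fat, at -1.26 (SE 0.22, adjusted p = 0.00044), and so did CTH, at -1.53 (SE 0.44, adjusted p = 0.0128), against -0.09 (SE 0.22, adjusted p = 0.858) and -0.10 (SE 0.43, adjusted p = 0.923) on ketogenic. The difference between the diets passed for CBS, at 1.17 (SE 0.31, adjusted p = 0.0316), and not for CTH, at 1.42 (SE 0.61, adjusted p = 0.145). With 14 libraries CBS was -0.95 (SE 0.12, adjusted p = 3.24e-05) on high fat with a difference of 0.66 (SE 0.17, adjusted p = 0.0141). Leaving out 1 library at a time ended that difference for high fat inhibitor library 2, 3 or 4, untreated ketogenic library 1, 2 or 3 and ketogenic inhibitor library 1 (0.85 to 1.29, adjusted p up to 0.0683). With 14 libraries CTH was -1.16 (SE 0.19, adjusted p = 0.000209) on high fat and -0.92 (SE 0.19, adjusted p = 0.0235) on ketogenic, both past the test. Without ketogenic inhibitor library 4 alone the ketogenic value was -0.92 (SE 0.28, adjusted p = 0.133) and did not pass. The ketogenic pass thus rests on also leaving out a high fat library, which is not part of that comparison.

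**Figure D4:**
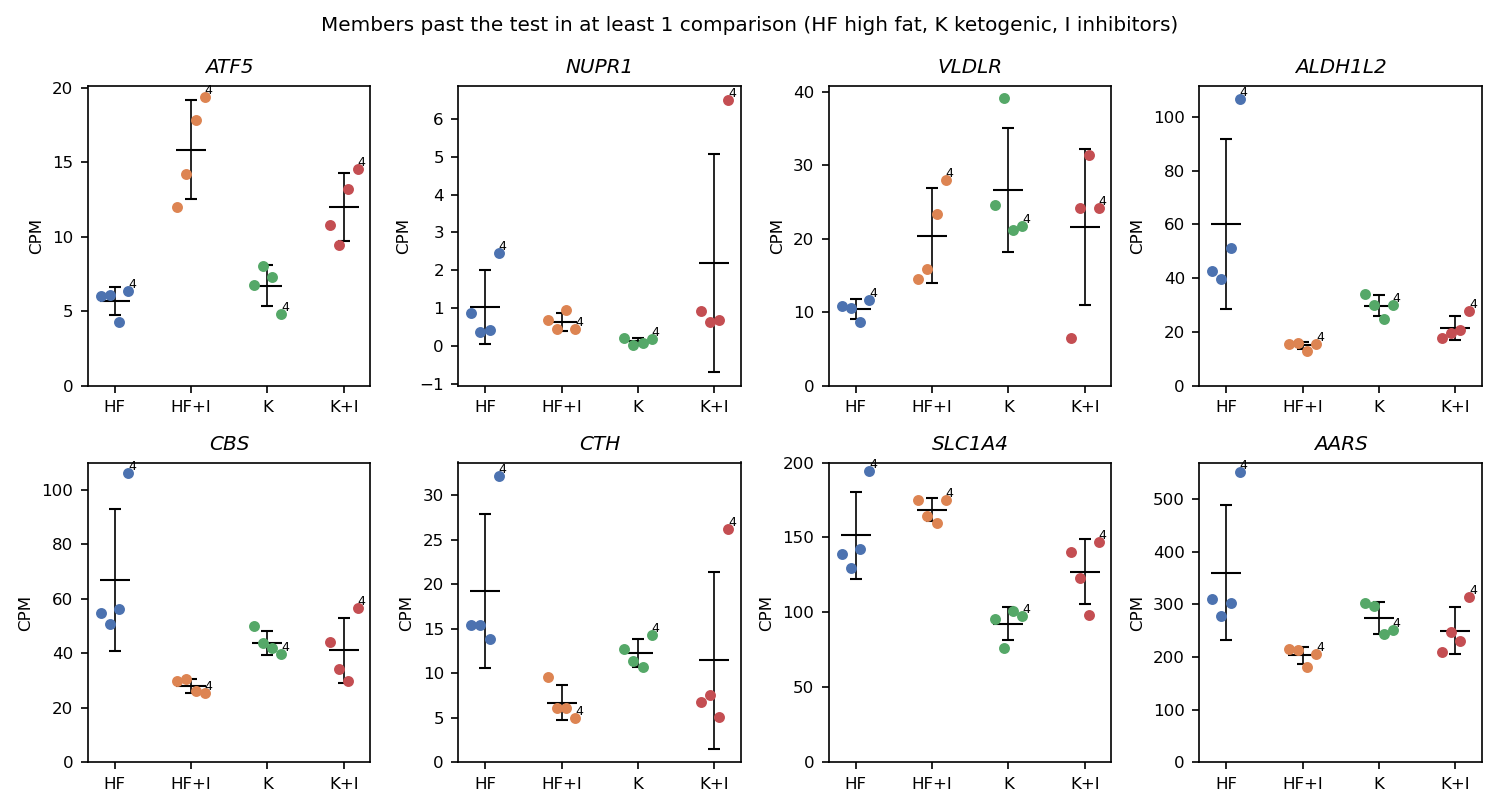
CPM of ATF5, NUPR1, VLDLR, ALDH1L2, CBS, CTH, SLC1A4 and AARS in each library (points, replicate 4 marked), with the group mean and SD; HF is high fat, K ketogenic and I inhibitors, and each panel has its own axis. The untreated high fat libraries lie above the treated ones for ALDH1L2, CBS, CTH and AARS, and below them for ATF5 and VLDLR.

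ALDH18A1 (chr10:95605929-95656706), the first enzyme of proline synthesis, was the member that was not high in either library. It was at 169, 159, 162 and 142 CPM without and 129, 126, 110.3 and 118 CPM with inhibitors on high fat, and at 162, 136, 149.9 and 155 CPM and 124, 140.0, 122 and 99.5 CPM on ketogenic. It fell on high fat, at -0.39 (SE 0.10, adjusted p = 0.00652), and the ketogenic value was -0.31 (SE 0.10, adjusted p = 0.119). With 14 libraries the high fat value was -0.43 (SE 0.08, adjusted p = 0.000572). PYCR1, which completes proline synthesis, was at 102 to 167 CPM without and 75.9 to 85.0 CPM with inhibitors on high fat, a log2 fold change of -0.62 (SE 0.19, adjusted p = 0.0153) that was not called without untreated library 4 (adjusted p = 0.0584) and was called with 14 libraries, at -0.44 (SE 0.11, adjusted p = 0.00348). ASNS did not pass, with -1.39 (SE 0.70, adjusted p = 0.123) on high fat and 0.46 (SE 0.69, adjusted p = 0.767) on ketogenic, and -0.11 (SE 0.21, adjusted p = 0.702) and -0.53 (SE 0.21, adjusted p = 0.217) with 14 libraries. GPT2, the mitochondrial alanine transaminase, did not pass either. It was at 28.7, 32.6, 28.5 and 52.1 CPM without and 40.6, 47.7, 44.4 and 47.3 CPM with inhibitors on high fat, and its value there was 0.59 (SE 0.13, adjusted p = 0.00191) with 14 libraries. Without untreated high fat library 4 alone it was 0.59 (SE 0.24, adjusted p = 0.0578).

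Of the 8 transporters, SLC1A4 was the one that passed a test with 16 libraries. SLC1A4 (chr2:64988477-65023865) carries alanine, serine and cysteine. It was at 139, 129.7, 142 and 194 CPM without and 175, 164, 159.9 and 175 CPM with inhibitors on high fat. On ketogenic it was at 95.4, 76.2, 101 and 97.7 CPM without and 141, 123, 98.4 and 147 CPM with inhibitors. The untreated ketogenic libraries lay below every high fat library. The ketogenic diet without inhibitors lowered it, at -0.71 (SE 0.14, adjusted p = 0.00577), and with inhibitors the diet value was -0.40 (SE 0.14, adjusted p = 0.23). With 14 libraries they were -0.57 (SE 0.11, adjusted p = 0.00406) and -0.48 (SE 0.11, adjusted p = 0.0495). Without ketogenic inhibitor library 4 alone the diet value with inhibitors was -0.48 (SE 0.14, adjusted p = 0.131) and did not pass. SLC38A1 (chr12:46183063-46270017) and SLC38A2 (chr12:46358189-46372867) carry glutamine and other neutral amino acids with sodium. SLC38A1 was at 73.8, 71.0, 81.1 and 149 CPM and 58.7, 64.7, 64.8 and 75.6 CPM on high fat, and at 57.4, 75.8, 50.6 and 57.4 CPM and 65.6, 66.9, 58.2 and 92.3 CPM on ketogenic, without and with inhibitors. SLC38A2 was at 285, 306, 311 and 425 CPM and 407, 416, 422 and 418 CPM on high fat, and at 296, 324, 307 and 287 CPM and 266, 316, 326 and 433 CPM on ketogenic. Their inhibitor effects on high fat, -0.51 (SE 0.21, adjusted p = 0.0629) and 0.33 (SE 0.14, adjusted p = 0.068), did not pass; SLC38A2 passed with 14 libraries at 0.47 (SE 0.08, adjusted p = 0.000454).

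SLC7A5, SLC3A2 and SLC7A11 were singled out after their values were seen. SLC7A5 forms with SLC3A2 the exchanger of large neutral amino acids, and SLC7A11 with SLC3A2 the cystine-glutamate exchanger that supplies cysteine for glutathione. On high fat SLC7A11 was at 13.2, 16.1, 15.3 and 51.1 CPM without and 29.3, 39.2, 34.5 and 34.2 CPM with inhibitors, so the treated libraries lay above 3 of the untreated ones and below the fourth. On ketogenic it was at 28.3, 27.4, 27.3 and 20.2 CPM without and 15.4, 25.5, 19.3 and 53.4 CPM with inhibitors. The high fat value was 0.52 (SE 0.42, adjusted p = 0.338) with 16 libraries and 1.21 (SE 0.16, adjusted p = 5.74e-05) with 14, and the difference between the diets was -0.38 (SE 0.59, adjusted p = 0.708) and -1.57 (SE 0.23, adjusted p = 0.000988). SLC7A5 was at 75.4, 78.0, 78.2 and 208 CPM without and 141, 187, 153 and 179 CPM with inhibitors on high fat, with values of 0.59 (SE 0.50, adjusted p = 0.367) and, with 14 libraries, 1.10 (SE 0.34, adjusted p = 0.017). SLC3A2 was at 104, 88.0, 97.5 and 254 CPM and 103, 134, 139 and 147 CPM, with -0.06 (SE 0.47, adjusted p = 0.934) and 0.44 (SE 0.16, adjusted p = 0.0307). In these 3 genes the fourth untreated library, at 51.1, 208 and 254 CPM, was the highest of the 8 libraries on high fat. Leaving out that library alone, SLC7A11 and SLC38A2 passed for inhibitors on high fat and SLC7A5 and SLC3A2 did not. The other members of the role are the arginine and lysine carrier SLC7A1 and the glutamine carrier SLC1A5. SLC7A1 was at 49.6 to 88.8 CPM in 14 libraries, and at 121 and 104 CPM in the high fat and ketogenic libraries that stand apart. SLC1A5 was at 135 to 213 CPM in 14 libraries, and at 332 and 383 CPM in the high fat and ketogenic libraries that stand apart.

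Of the 9 cytosolic tRNA synthetases, AARS, YARS, CARS and EPRS fell with inhibitors on high fat and none passed on ketogenic. Of all genes, 21.7% were called lower on high fat, and 0.856% higher and 0.887% lower on ketogenic. AARS (chr16:70252295-70289543), which charges alanine tRNA, was at 310.1, 277, 302 and 551 CPM without and 214, 214, 180.3 and 205 CPM with inhibitors on high fat. On ketogenic it was at 302, 298, 244 and 251 CPM without and 209, 248, 231 and 313 CPM with inhibitors. EPRS (chr1:219968601-220046658), the glutamyl-prolyl enzyme, was at 290.3, 292, 314 and 408 CPM and 248, 251, 236 and 259 CPM on high fat, and at 265, 283, 271 and 272 CPM and 229, 302, 267 and 260.1 CPM on ketogenic. In both genes the treated high fat libraries lay below all untreated ones. CARS (chr11:3000922-3057613), the cysteinyl enzyme, was at 117, 106, 104 and 120.4 CPM and 87.6, 84.7, 77.6 and 79.7 CPM on high fat, and at 80.1, 82.0, 74.4 and 87.6 CPM and 97.6, 69.8, 68.8 and 122 CPM on ketogenic. Inhibitors on high fat gave -0.82 (SE 0.18, adjusted p = 0.00233) for AARS, -0.39 (SE 0.11, adjusted p = 0.00978) for EPRS and -0.44 (SE 0.14, adjusted p = 0.0217) for CARS. With 14 libraries the values were -0.54 (SE 0.10, adjusted p = 0.000485), -0.27 (SE 0.09, adjusted p = 0.0201) and -0.40 (SE 0.11, adjusted p = 0.00691). The CARS call was lost without untreated library 1 or inhibitor library 3 or 4 (adjusted p up to 0.0578). YARS, at -0.54 (SE 0.19, adjusted p = 0.0289), was not called without untreated library 4 or inhibitor library 1, 2 or 3 (-0.63 to -0.35, adjusted p up to 0.118), and was called with 14 libraries, at -0.35 (SE 0.09, adjusted p = 0.00435). CARS was also lower on the ketogenic than on the high fat diet without inhibitors, at -0.46 (SE 0.14, adjusted p = 0.0421), which passed with 14 libraries, at -0.43 (SE 0.11, adjusted p = 0.0137), and under 8 of 18 alternatives. Of the fits without 1 library, that without untreated ketogenic library 4 kept the call and the others of the pair of groups lost it (adjusted p up to 0.104). GARS, MARS, NARS, SARS and WARS, the enzymes for glycine, methionine, asparagine, serine and tryptophan, passed in no comparison with 16 libraries. With 14, WARS passed in 3: inhibitors on high fat, at 0.42 (SE 0.13, adjusted p = 0.0148), diet without inhibitors, at 0.45 (SE 0.13, adjusted p = 0.0232), and the difference of effects, at -0.57 (SE 0.18, adjusted p = 0.0376). Without untreated high fat library 4 alone WARS passed in none of these. Its values were then 0.42 (SE 0.20, adjusted p = 0.107), 0.45 (SE 0.20, adjusted p = 0.147) and -0.30 (SE 0.27, adjusted p = 0.496). GARS was at 121 to 182 CPM in 14 libraries, and at 248.7 and 305 CPM in the high fat and ketogenic libraries that stand apart. MARS was at 176 to 242 CPM in 14 libraries, and at 369.8 and 308 CPM in the high fat and ketogenic libraries that stand apart. WARS was at 162 to 280.4 CPM in 14 libraries, and at 301 and 379 CPM in the high fat and ketogenic libraries that stand apart. NARS was at 240.0 CPM in the high fat library and 203 CPM in the ketogenic one against 154 to 205 CPM elsewhere.

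**Figure D5:**
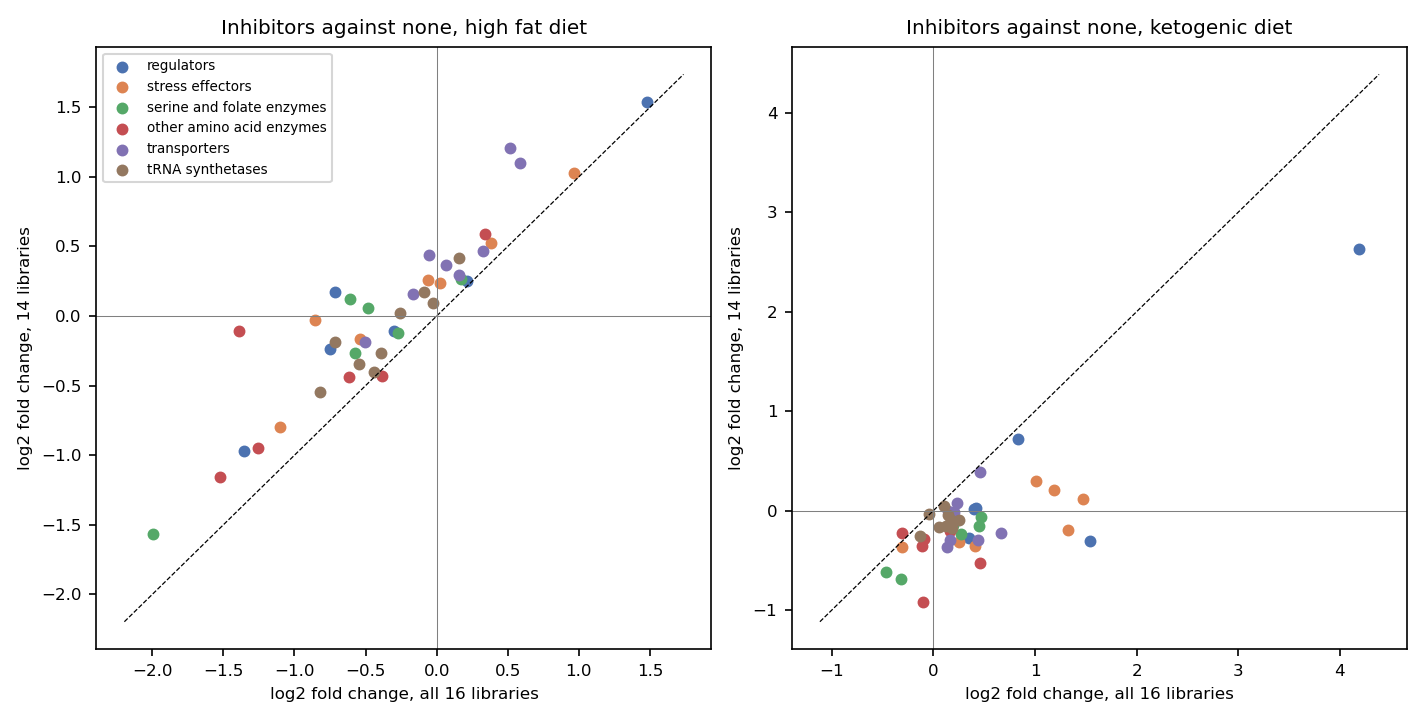
Log2 fold change of each member for inhibitors against none from all 16 libraries (horizontal axis) and with the 14 left without the fourth untreated high fat library and the fourth ketogenic library with inhibitors (vertical axis), on high fat (left) and ketogenic (right); colours mark the role and the dashed line marks equal values. On high fat the points lie above the line except ALDH18A1, which is below it, and on ketogenic all but ALDH18A1 and EPRS lie below it, as for DDIT3, which goes from 1.54 to -0.31.

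The ribosomal RNA share moved with the inhibitor groups. With the log2 share as a covariate, 1 member was higher and 6 were lower on high fat, none passed on ketogenic and none differed between the diets in the inhibitor effect. In that fit 15.1% and 15.2% of all genes were higher and lower on high fat, 0 genes passed on ketogenic, and 0.187% of all genes passed for the difference of effects. The 3 libraries of over 30% ribosomal RNA were untreated high fat libraries 2 and 3 and untreated ketogenic library 2. Without them the untreated high fat group held libraries 1 and 4, and library 4 is 1 of the 2 that stand apart. The fit then gave 1 member higher and 10 lower on high fat (10.7% and 12.9% of all genes) and none in the other comparisons. In that fit 0 of all genes passed for diet without inhibitors and for the difference of effects, 53 passed for inhibitors on ketogenic and 3 for diet with inhibitors. ATF5, ALDH1L2, CBS and AARS kept their high fat call under all 18 alternatives.

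Further genes of the pathway came from 6 lists. The counts of each list on high fat are to be read beside the 20.6% of all genes that were higher and the 21.7% that were lower, or 24.4% and 24% with 14 libraries. The upstream list holds the 4 eIF2 kinases, the subunits of eIF2 and of its exchange factor eIF2B, and their regulators. With inhibitors on high fat 4 of 16 (25%) were higher and 3 (18.8%) lower, near those shares, among them EIF2B1 at 0.40 (SE 0.08, adjusted p = 0.000902) and EIF2S3, an eIF2 subunit, at -0.66 (SE 0.10, adjusted p = 0.000114). EIF2B1 was also higher on ketogenic, at 0.35 (SE 0.08, adjusted p = 0.0339), the only gene of the 6 lists that passed there. Without inhibitors the ketogenic diet gave -0.48 (SE 0.10, adjusted p = 0.00651) for EIF2S3 and 0.46 (SE 0.15, adjusted p = 0.048) for the double-stranded RNA kinase EIF2AK2. Of 15 other ATF4 targets tested, 1 was higher and 5 were lower on high fat with inhibitors, among them the autophagy gene MAP1LC3B at 0.51 (SE 0.13, adjusted p = 0.00546) and KLHL24 at -0.38 (SE 0.11, adjusted p = 0.0117). The median of that list was -0.45, and -0.22 with 14 libraries, when 2 of 14 tested were higher and 5 lower. The death receptor gene TNFRSF10B was lower on ketogenic without inhibitors, at -0.44 (SE 0.12, adjusted p = 0.0278).

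The remaining lists held genes called in both directions. Among 14 further genes of cytosolic synthetases and their scaffold, 4 were higher and 4 lower with inhibitors on high fat, among them HARS at 0.72 (SE 0.11, adjusted p = 0.000219) and LARS at -0.64 (SE 0.11, adjusted p = 0.000318). LARS and KARS were lower on ketogenic without inhibitors, at -0.37 (SE 0.11, adjusted p = 0.0302) and -0.23 (SE 0.07, adjusted p = 0.0484). Of 17 mitochondrial synthetases 3 were higher and 1 lower on high fat with inhibitors, with CARS2 at 0.49 (SE 0.09, adjusted p = 0.000874). TARS2 was higher on ketogenic without inhibitors, at 0.40 (SE 0.10, adjusted p = 0.0186). Of 18 other transporters tested 5 were higher and 6 lower, with SLC36A4 at 0.92 (SE 0.15, adjusted p = 0.000277) and the leucine transporter SLC43A1 at -1.06 (SE 0.12, adjusted p = 3.05e-05). SLC7A8, a light chain that exchanges neutral amino acids, was higher on ketogenic without inhibitors, at 1.54 (SE 0.23, adjusted p = 0.00235), where SLC43A1 was -0.64 (SE 0.12, adjusted p = 0.00529). Both differed between the diets in the inhibitor effect, at -1.19 (SE 0.31, adjusted p = 0.0315) and 1.01 (SE 0.17, adjusted p = 0.00761). Of 21 tested genes of serine, folate, proline, glutamine and arginine metabolism 6 were higher and 2 lower, with the glycine decarboxylase GLDC at 0.98 (SE 0.13, adjusted p = 6.72e-05) and the pyrroline reductase PYCRL at 0.90 (SE 0.12, adjusted p = 5.65e-05). On ketogenic without inhibitors GLDC was 0.82 (SE 0.13, adjusted p = 0.00242) and ASL, the argininosuccinate lyase, 0.81 (SE 0.15, adjusted p = 0.00529). The difference of the inhibitor effects was -0.97 (SE 0.18, adjusted p = 0.00925) for GLDC, -0.61 (SE 0.16, adjusted p = 0.0318) for PYCRL and 0.68 (SE 0.14, adjusted p = 0.0115) for EIF2S3. With 14 libraries the list counts on high fat were 5 higher and 5 lower (upstream), 5 and 4 (cytosolic synthetases), 4 and 1 (mitochondrial synthetases), 6 and 6 (transporters) and 5 and 3 (metabolism). Each gene of the lists named above passed in the same direction with 14 libraries, with TNFRSF10B at a smaller size, -0.26 (SE 0.07, adjusted p = 0.0221), and the stress chaperone DNAJC3, named after its value was seen, passed beside EIF2B1 on ketogenic, at 0.34 (SE 0.08, adjusted p = 0.0444).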

How the data were processed

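The authors deposited a table of expected counts per gene symbol for 16 libraries of poly-A RNA, 12.96% of whose values were not whole. Bowtie2 2.1.0, RSEM 1.2.15 and the build hg38 appear in the submitters' processing notes, with no role or order. No source used here states the annotation, the strand setting or what was done with mouse reads, so reads of overlapping genes cannot be told apart.

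Counts were rounded, filtered by group with filterByExpr and scaled by TMM. They were tested with edgeR 4.0.16 (quasi-likelihood, robust, R 4.3.3) in 1 model of group means over all libraries with 12 residual degrees of freedom. P-values were adjusted over the 16012 genes tested by Benjamini-Hochberg, with a threshold of 0.05. The SE of a log2 fold change is its size divided by the root of F. The steps were also run on simulated counts, the outcome of which is not given here. Those counts held no library that stands apart and no difference in ribosomal RNA share between groups. Groups came from the labels. Fits were repeated with library size alone or RLE factors, without the filter, in DESeq2 1.42.0, in limma 3.58.1 (voom with quality weights), on only the libraries compared, with a replicate block, with the ribosomal RNA share, and with libraries left out.

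The members, lists and tests were chosen with earlier results of these data known. In each of the 6 roles the 3 members with the smallest p in any comparison, and ATF4, are given library by library, and in each list the 2 genes with the smallest p per comparison among those past the test, except that some items are not reported here. Depth was 37099876 to 77251525 counts per library, so counting error is small except for NUPR1. For the lists, NIBAN1 and PYCR3 were matched by the older symbols FAM129A and PYCRL.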

Additional observations from a re-analysis of the deposited data

Results flagged for a closer look

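Within each group of 4 libraries, a value was marked when its gap to the nearest other library as a share of the range of the group exceeded Dixon's critical value for 4, which chance does in about 5% of groups. Of 168 combinations of member and group, 49 were marked: 27 of 42 in the untreated high fat group, 18 in the ketogenic group with inhibitors, 3 in the high fat group with inhibitors and 1 in the untreated ketogenic group. Over all genes tested the shares in the same order were 8.75%, 9.20%, 6.24% and 5.47%.

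In the untreated high fat group, 26 of the 27 marked values were the highest, all in replicate 4. In CPM they were ATF4 450.1, DDIT3 59.6, CEBPG 89.3, DDIT4 258, TRIB3 123, STC2 8.64, PSAT1 251, PHGDH 334, PSPH 26.6, SHMT2 194, MTHFD2 253, ASNS 344 and CTH 32.2. The rest were CBS 106, SLC7A1 121, SLC7A5 208, SLC7A11 51.1, SLC3A2 254, SLC1A5 332, SLC38A1 149, AARS 551, GARS 248.7, MARS 369.8, NARS 240.0, SARS 382 and WARS 301. The other marked value of that group was the low ATF5 of replicate 3, at 4.27 CPM. In the ketogenic group with inhibitors all 18 were the highest values, in replicate 4. In CPM these were DDIT3 182, CEBPB 186, CEBPG 81.1, NUPR1 6.51, CHAC1 128, TRIB3 198, SESN2 69.4, PPP1R15A 238 and STC2 8.89. They went on with PSPH 48.1, MTHFD2 206, ASNS 197, CTH 26.3, SLC3A2 414, SLC1A5 383, MARS 308, SARS 251 and YARS 319.

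In the high fat group with inhibitors, replicate 1 was low in TRIB3 26.1, PHGDH 118 and MTHFD2 83.2 CPM. In the untreated ketogenic group, replicate 4 was low in SLC7A11, at 20.2 CPM. The inhibitor effect differed between the diets in NUPR1 (4.90 on the log2 scale, more positive on ketogenic), ALDH1L2 (1.52) and CBS (1.17), by the test of the difference itself in edgeR.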

How the results depend on the processing

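Of the 22 pairs of a member and a comparison that passed, 4 passed under every alternative run (ATF5, ALDH1L2, CBS and AARS for inhibitors on high fat) and 9 were kept when each library was left out in turn. No called value changed sign. Counts of members that moved by over 1.5 times follow, against 2 higher and 10 lower on high fat, 2 and 0 on ketogenic, 1 and 4 for diet without inhibitors, 0 and 0 for diet with inhibitors, and 3 for the difference of effects; the cause was not tested. DESeq2 gave 4 higher on ketogenic and 5 for the difference (2.77% and 15.6% of all genes). Library size alone gave 3 lower on high fat, 0 lower for diet without inhibitors and 0 for the difference (7.69%, 0.887% and 1.49% of all genes). It moved the median of all genes to 0.25, 0.28, 0.15 and 0.19 in the first 4 comparisons, with member medians of -0.08, 0.48, -0.24 and 0.37. On high fat it turned the split of all genes from 20.6% higher and 21.7% lower to 30.3% and 7.69%. Without the low-count filter 1 was higher on high fat (14.2% of all genes). Voom with quality weights gave 12 higher on high fat, 3 lower on ketogenic, 4 higher and 9 lower for diet without inhibitors, 5 lower for diet with inhibitors, and 10 for the difference. The shares of all genes in that fit were 30.4%, 4.86%, 19.7% and 20.2%, 3.66%, and 32.5%. A fit of only the libraries compared gave 4 higher on high fat and 0 higher on ketogenic (24.6% and 0.163% of all genes). With the ribosomal RNA share as covariate the counts were 1 higher and 6 lower on high fat, 0 higher on ketogenic and 0 for the difference. Without the libraries of over 30% ribosomal RNA they were 1 higher on high fat, 0 higher on ketogenic, 0 and 0 for diet without inhibitors and 0 for the difference. Without both libraries that stand apart, 10 were higher on high fat, 1 higher and 3 lower on ketogenic, 4 higher for diet without inhibitors, 5 lower for diet with inhibitors, and 9 passed for the difference. Leaving out 1 library gave 1 to 3 higher and 7 to 12 lower on high fat, 0 to 2 higher on ketogenic, 0 to 1 higher and 1 to 4 lower for diet without inhibitors, and 1 to 4 for the difference. Of all genes, these fits called 16.8% to 20.9% higher and 16.7% to 20.9% lower on high fat, and 0.166% to 1.06% higher on ketogenic. For diet without inhibitors they called 3.16% to 8.94% higher and 1.63% to 7.33% lower, and for the difference 2.51% to 16.2%. RLE factors moved none of these counts.

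With the replicate number as a replicate block, 2 members were higher and 11 lower on high fat, 1 was higher on ketogenic, 1 higher and 5 lower for diet without inhibitors, and 3 passed for the difference. The shares of all genes in that fit were 21.1% and 21.5%, 0.699%, 8.17% and 5.83%, and 8.95%. With the block the member median was -0.26 on high fat and 0.42 for the difference, against -0.34 and 0.66 in the main fit. The deviations of same-numbered libraries correlated between -0.15 and 0.21, over 0.1 in 4 of 24 pairs, so the numbers were not taken as pairing the libraries. The 2 libraries that stand apart are both replicate 4, and their pair, at 0.16, was among those 4.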

Other observations

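The 2 libraries that stand apart differed in which roles were highest. As the median over the members of a role of log2 CPM relative to the mean of the gene over 16 libraries, the fourth untreated high fat library was 1.12 for the serine and folate enzymes, 1.07 for the regulators, 1.06 for the other amino acid enzymes, 0.83 for the stress effectors, 0.78 for the transporters and 0.63 for the tRNA synthetases. The fourth ketogenic library with inhibitors was 1.59 for the stress effectors, 1.12 for the regulators, 0.98 for the serine and folate enzymes, 0.77 for the transporters, 0.75 for the other amino acid enzymes and 0.53 for the tRNA synthetases. The first ketogenic library with inhibitors was the lowest of all 16 over the 42 members, at -0.35, with -0.66 for the stress effectors and -0.51 for the transporters. Among the other libraries of the high fat groups, the transporters were at 0.16 to 0.29 with inhibitors and at -0.25 to -0.16 without. The fourth untreated library, at 0.78, lay above both ranges. With 16 libraries 5 of the 8 transporters had a positive inhibitor value on high fat and 0 passed, while 20.6% of all genes were called higher. In those other libraries the enzymes of the cysteine, proline, asparagine and alanine routes were at -0.30 to -0.21 with inhibitors and at 0.15 to 0.30 without. With 16 libraries 4 of these 6 enzymes were called lower on high fat, where 21.7% of all genes were. Such ranges were not computed over all genes. DNAJB9, a chaperone gene of the unfolded protein response, was 38.2 CPM in the fourth untreated high fat library against 20.8 to 24.0 CPM in the other 3, and 23.5 CPM in the fourth ketogenic library with inhibitors, within the 17.7 to 27.1 CPM of its group.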
